A study of Mus musculus with 29 samples.

Results

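Dnajc2 encodes a ribosome-bound J-domain protein and lies within the 5A3 interval of mouse chromosome 5. It is described here with 4 genes whose products act on newly made protein chains, Hspa14, Hspa8, Naca and Btf3. These 5 genes were taken by symbol from the 30025 genes of the deposited table, and all 5 were among the 15409 genes that passed the filter on low values. RNA-Seq was performed on CD150hi HSC, CD150lo HSC and CD150neg MPP, which are bone marrow stem and progenitor cells sorted by their surface level of CD150. The 29 libraries came from 5 WT mice (genotype label WT/WT) and 5 5A3+/del mice, which carry a germ line deletion of 5A3 on a single chromosome in every cell. Each group held 5 libraries, apart from the CD150neg MPP of 5A3+/del mice, where mouse 5 had none and 4 remained. All mice were C57BL/6J and 12.42 to 13.85 weeks old, and the labels name no treatment for either genotype.

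As a protein chain leaves the ribosome, factors at the exit tunnel bind it before it can fold wrongly. Dnajc2 and the Hsp70-type protein Hspa14 form the ribosome-associated complex, in which the J-domain of Dnajc2 stimulates a cytosolic Hsp70 such as Hspa8 on the emerging chain. Naca and Btf3 are the alpha and beta subunits of the nascent polypeptide-associated complex, which also sits at the exit and limits mistargeting of chains to the endoplasmic reticulum. Dnajc2 has a further known role on chromatin in the nucleus.

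The values are FPKM, which scale the fragments of a gene to the length of its exons and the depth of the library, with 21229492 to 38797531 fragments recovered per library (median 26967093). Slamf1, which encodes CD150, was at 9.97 to 22.6 FPKM in CD150hi HSC, 0.180 to 2.64 in CD150lo HSC and 0.00951 to 0.296 in CD150neg MPP, in the order of the sort. The sorted-cell marker Kit was at 111 to 203 FPKM in every library, while 8 mature B and T cell markers summed to 6.85 to 32.3 FPKM. Of these, Cd79b was at 5.43 to 31.7 FPKM, and Ms4a1 was listed at 0 in every library of 4 of the 6 groups and reached 0.0441 FPKM in the others. The summed level of 8 granulocyte and monocyte markers ranged from 47.5 to 842 FPKM in WT CD150hi HSC and from 15.0 to 122 FPKM with the deletion. The 3 libraries of WT mouse 3 had Xist, the RNA that coats the inactive X chromosome, at 234 to 319 FPKM, against at most 0.470 in the other 26. The labels used here give no sex.

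Dnajc2 was lower in 5A3+/del than in WT mice in each of the 3 populations, at 52.7% of WT on average. The gene spans chr5:21263085-21291069 on the minus strand of mm9. Its 5′ end is separated by 31 bases from the start of Psmc2, a proteasome ATPase gene on the opposite strand, and its 3′ end by 114 bases from the end of Pmpcb, a subunit of the mitochondrial processing peptidase. In WT CD150hi HSC the 5 mice, in order of their number, had 13.7, 17.9, 18.02, 14.9 and 14.3 FPKM of Dnajc2. In 5A3+/del CD150hi HSC the values were 9.19, 6.04, 7.67, 7.83 and 9.66 FPKM. The highest 5A3+/del library was thus below the lowest WT library.

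The same separation was seen in the other populations. WT CD150lo HSC had 16.3, 13.7, 13.4, 17.7 and 18.4 FPKM of Dnajc2, and 5A3+/del CD150lo HSC had 6.79, 11.2, 8.64, 8.49 and 9.20 FPKM. WT CD150neg MPP had 16.9, 18.7, 17.3, 16.2 and 18.2 FPKM, and 5A3+/del CD150neg MPP had 5.60, 8.12, 7.00 and 9.62 FPKM. No 5A3+/del library reached a WT library of its population, and the closest approach was in CD150lo HSC, between 11.2 and 13.4 FPKM. These values rest on 693 to 3177 fragments per library.

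**Figure D1:**
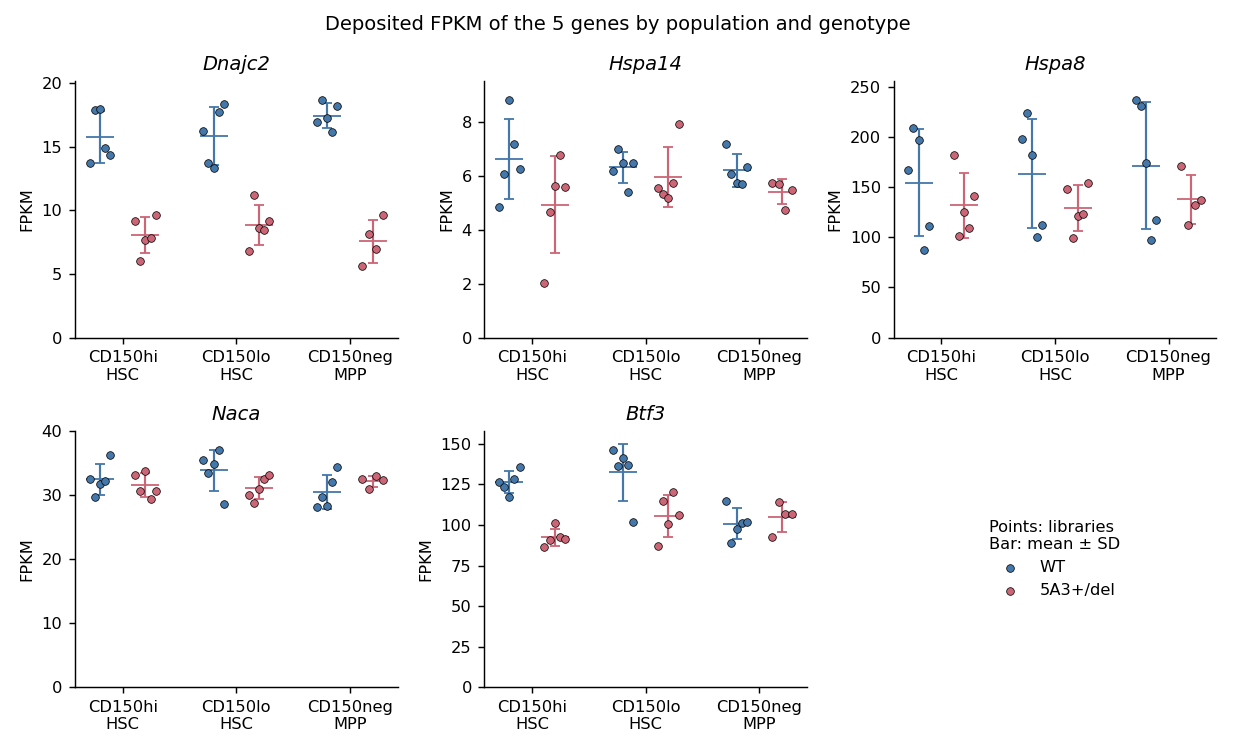
Deposited FPKM (vertical axes, from 0) of Dnajc2, Hspa14, Hspa8, Naca and Btf3 in each library, by population and genotype, with the mean and SD of 4 or 5 mice as bars. Dnajc2 is at 13.4 to 18.7 FPKM in WT mice and at 5.60 to 11.2 FPKM with the deletion, whereas the genotypes overlap for the other genes in all groups but Btf3 in CD150hi HSC.

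After quantile normalization the 5 WT CD150hi HSC libraries had a mean Dnajc2 level of 15.8 ± 1.63 FPKM (SD), and the 5 libraries with the deletion had 8.10 ± 1.45 FPKM. The log2 difference was −0.89 (SE 0.14, adjusted p = 0.0055, limma with Benjamini-Hochberg adjustment over 15409 genes). In CD150lo HSC it was −0.78 (SE 0.14, limma adjusted p = 0.0267), and in CD150neg MPP it was −1.11 (SE 0.15, limma adjusted p = 0.000607). Averaged over the 3 populations, with the mouse as a block, the level was 52.7% of WT (95% interval 46.3% to 59.9%, limma adjusted p = 5.6e-07). Of all genes tested, 0.156% passed the threshold of 0.05 in CD150hi HSC, 0.0324% in CD150lo HSC, 0.0454% in CD150neg MPP and 0.247% in the mean effect. Counting only genes lower in 5A3+/del mice, these shares were 0.123%, 0.0260%, 0.0389% and 0.156%.

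The call in CD150lo HSC depended on which mice were included. Leaving out each of 7 of the 10 mice in turn raised the adjusted p in CD150lo HSC above 0.05, to at most 0.134. Without WT mouse 3 alone, the log2 differences of Dnajc2 were −0.86, −0.81 and −1.09 in the 3 populations. The 7 mice were WT 1 to 4 (limma adjusted p 0.128, 0.0519, 0.0898 and 0.126) and 5A3+/del 3 to 5 (0.134, 0.0766 and 0.0549). When only the groups compared entered the fit, 0 genes passed in any population by limma, and the adjusted p of Dnajc2 was 0.365, 0.232 and 0.116. At an unadjusted p under 0.05 these fits held 1277, 1291 and 729 genes in the 3 populations. The differences themselves were unchanged to 2 decimals, since the group means are the same.

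Genotypes did not overlap, with lower values in 5A3+/del mice, for 1.48%, 0.876% and 0.792% of all genes in CD150hi HSC, CD150lo HSC and CD150neg MPP. In all, 4 genes, or 0.0260%, met this in each of the 3 populations, and these were Dnajc2, Mll5, Orc5 and Pmpcb, all from 5A3. The other expressed genes of the interval give the setting for the Dnajc2 values. All 6 were lower in 5A3+/del mice in the mean effect on the log2(FPKM + 1) scale. They ran from Orc5, an origin recognition complex subunit, at 49.0% of WT to Psmc2 at 58.6%. Dnajc2, at 52.7%, lay within this range on that scale, which understates the change of low genes. By mean FPKM the low gene Napepld was at 54.8%, 33.9% and 14.3% of WT in CD150hi HSC, CD150lo HSC and CD150neg MPP. Dnajc2 was at 51.2%, 55.8% and 43.5% by mean FPKM. The divergent neighbour Psmc2 was at 52.5%, 55.7% and 68.5% of WT in CD150hi HSC, CD150lo HSC and CD150neg MPP on the log2(FPKM + 1) scale, and Dnajc2 was at 53.8%, 58.2% and 46.5%.

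Mice of the same age label gave the same direction for Dnajc2. At each age and population where both genotypes were present, the mean normalized FPKM in 5A3+/del mice was 30.3% to 67.7% of WT (median 50.5%, 8 of 8 comparisons below 100%). Comparisons at the same age share mice, so they are not independent of each other. Ages were spread unevenly, with 3 WT mice and 1 5A3+/del mouse at 13.28 weeks, 1 and 2 at 12.42 weeks, 1 and 1 at 12.85 weeks, and 1 5A3+/del mouse alone at 13.85 weeks.

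Among populations of the same genotype, Dnajc2 varied little. In WT mice the normalized means were 15.8 ± 1.63, 16.1 ± 2.07 and 17.0 ± 1.24 FPKM (SD, n = 5 each) in CD150hi HSC, CD150lo HSC and CD150neg MPP. With the deletion they were 8.10 ± 1.45, 9.00 ± 1.66 and 7.53 ± 1.99 FPKM (n = 5, 5 and 4). Neighbouring levels differed by less than their spread, and the differences between WT populations were −0.10 to −0.02 on the log2 scale with 95% intervals from −0.39 to 0.27. The genotype effects of 2 populations differed most between CD150lo HSC and CD150neg MPP, by 0.32 on the log2 scale (95% interval −0.10 to 0.75, limma unadjusted p = 0.128). No gene passed the test of such a difference between populations (0.00% of those tested).

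Hspa14, the partner of Dnajc2 in the ribosome-associated complex, showed no called genotype difference. WT CD150hi HSC had 4.84, 6.07, 8.81, 7.20 and 6.25 FPKM of Hspa14, and 5A3+/del CD150hi HSC had 2.05, 4.65, 5.64, 6.77 and 5.57 FPKM. The genotypes overlapped, and the lowest value came from the CD150hi library of 5A3+/del mouse 1, with 440 fragments. That mouse had 5.55 and 5.72 FPKM in its other 2 libraries, within the range of the WT mice. The log2 difference was −0.36 (SE 0.16, limma adjusted p = 0.33) in CD150hi HSC, and it moved to −0.18 without that mouse. In CD150lo HSC the WT mice had 5.41 to 6.99 FPKM of Hspa14 and the 5A3+/del mice 5.19 to 7.92 FPKM, and in CD150neg MPP they had 5.69 to 7.19 and 4.74 to 5.72 FPKM. The log2 differences there were −0.09 and −0.15, with 95% intervals of −0.42 to 0.24 and −0.50 to 0.20.

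The identifier used for Hspa14 in the table joins a pair of overlapping annotated genes on the minus strand of chromosome 2 (mm9), at chr2:3406122-3430086 and chr2:3421801-3430031. Its FPKM are scaled to 8083 bp of merged exons, against 1795 bp for the main coding transcript, Hspa14-001. Fragments of the 2 annotated genes cannot be told apart in the table.

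Because Dnajc2 was lower and Hspa14 was not called, their ratio was compared within each library, as the log2 ratio of normalized FPKM + 1. In CD150neg MPP the 5 WT libraries had log2 ratios of 1.12, 1.47, 1.41, 1.38 and 1.39, and the 4 5A3+/del libraries had −0.023, 0.44, 0.48 and 0.71. The groups did not overlap, and the mean fell by 0.95. By a two-sided exact permutation test p was 0.0159, which is the smallest that 5 against 4 libraries allow (adjusted p = 0.0476 over 6 tests). In CD150lo HSC the mean log2 ratio of 5 libraries was 1.201 ± 0.31 (SD) for WT mice and 0.51 ± 0.31 for mice with the deletion, with overlap (exact permutation test, p = 0.0238, adjusted p = 0.0476). In CD150hi HSC the means were 1.15 ± 0.18 and 0.62 ± 0.54 (exact permutation test, p = 0.0714, adjusted p = 0.107). The 5A3+/del mouse 1 library with low Hspa14 had a log2 ratio of 1.53, above every WT library of CD150hi HSC, and without that mouse the difference was −0.75 (exact permutation test, adjusted p = 0.0476).

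Leaving out a mouse left 4 libraries in its group, or fewer in the CD150neg MPP of 5A3+/del mice. The adjusted p of the Dnajc2 to Hspa14 ratio then rose to between 0.0635 and 0.0952 by exact permutation tests. In CD150lo HSC this was so for 9 of 10 omitted mice (all but 5A3+/del mouse 2). In CD150neg MPP it was so for each of the 9 mice with a library. With few possible arrangements, these tests cannot tell dependence on single mice from the smaller number of libraries. Non-overlap of the genotypes, without regard to direction, was found for 1.51% of single genes in CD150neg MPP. The share among ratios of gene pairs was not computed. The ratio carries the genotype difference of Dnajc2 and is no independent measure of it.

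**Figure D2:**
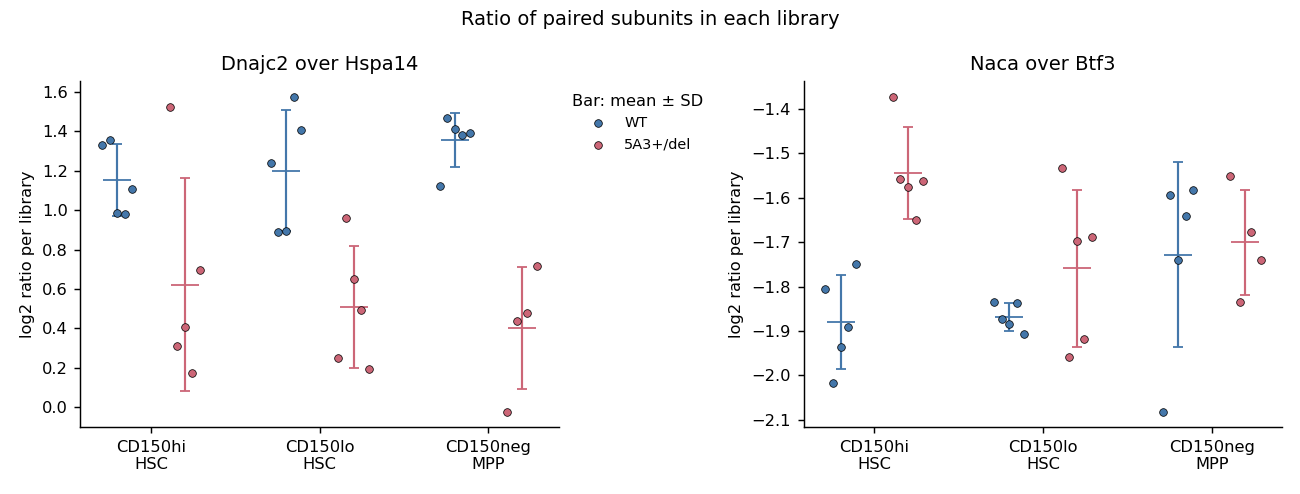
Log2 ratio of normalized FPKM + 1 within each library for Dnajc2 over Hspa14 (left) and Naca over Btf3 (right), by population and genotype, with mean and SD. The vertical axes do not start at 0. In CD150neg MPP the Dnajc2 to Hspa14 ratio is 1.12 to 1.47 in WT mice and −0.023 to 0.71 with the deletion, and in CD150hi HSC the Naca to Btf3 ratio is −2.02 to −1.75 in WT mice and −1.65 to −1.37 with the deletion.

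Naca, the alpha subunit of the nascent polypeptide-associated complex, was the steadiest of the 5 genes. Its deposited values ranged from 28.1 to 37.0 FPKM over all 29 libraries, with 4198 to 9668 fragments. WT CD150hi HSC had 32.5, 29.6, 31.7, 32.2 and 36.2 FPKM, and 5A3+/del CD150hi HSC had 33.2, 30.7, 33.7, 29.4 and 30.7 FPKM. The genotypes overlapped in each population. The log2 differences were −0.04, −0.11 and 0.06 in CD150hi HSC, CD150lo HSC and CD150neg MPP (limma adjusted p of at least 0.882), and their 95% intervals lay between −0.30 and 0.26.

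Btf3, the beta subunit, separated the genotypes in CD150hi HSC but did not pass the test over all genes. WT CD150hi HSC had 127, 124, 117, 129 and 136 FPKM of Btf3, and 5A3+/del CD150hi HSC had 86.6, 90.6, 101, 92.6 and 91.2 FPKM. Every 5A3+/del library was below every WT library, as was the case for 1.48% of genes in this population. The log2 difference was −0.38 (SE 0.10, 95% interval −0.58 to −0.18, limma unadjusted p = 0.000544, adjusted p = 0.0839). Over all alternatives the limma adjusted p ranged from 0.0259 to 0.455, and it was under 0.05 with the trended variance and with either change of the filter.

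In CD150lo HSC the WT mice had 146, 136, 141, 137 and 102 FPKM of Btf3 and the 5A3+/del mice had 87.0, 114, 101, 120 and 106 FPKM. WT mouse 5 lay among the 5A3+/del mice here. The log2 difference was −0.22 (SE 0.10, limma unadjusted p = 0.0343, adjusted p = 0.663). In CD150neg MPP it was 0.04 (SE 0.10), with 88.8 to 115 FPKM in WT mice and 92.4 to 114 FPKM with the deletion. The genotype effect in CD150hi HSC was lower than that in CD150neg MPP by 0.42 on the log2 scale (95% interval −0.71 to −0.13, limma unadjusted p = 0.00657), which did not pass adjustment over all genes (adjusted p = 0.426).

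In WT mice the level of Btf3 in HSC was above that in MPP without passing the test, at 124 ± 3.46 and 127 ± 9.48 normalized FPKM in CD150hi and CD150lo HSC against 101 ± 9.08 in CD150neg MPP (SD, n = 5 each). The difference between CD150hi HSC and CD150neg MPP was 0.29 on the log2 scale (SE 0.10, limma adjusted p = 0.051), where 10.0% of all genes passed. The 3 populations came from the same mice. With the mouse as a random block its limma adjusted p was 0.034, with the mouse as a fixed factor 0.0379, and over all alternatives 0.0172 to 0.192. Mice with the deletion had 95.1 ± 6.97, 109 ± 11.8 and 104 ± 10.0 FPKM (n = 5, 5 and 4), and there the same difference was −0.12 (95% interval −0.33 to 0.09). Among the 30 tests of the 5 genes between populations of a genotype, 0 passed by limma, and 2 had an unadjusted p under 0.05. These 2 were of Btf3 in WT mice, for CD150lo HSC and for CD150hi HSC against CD150neg MPP. In these comparisons 1349 and 3362 of all 15409 genes had such an unadjusted p by limma. Of all genes, 3.53%, 0.188% and 10.0% passed between CD150hi and CD150lo, CD150lo and CD150neg, and CD150hi and CD150neg cells of WT mice, and 3.18%, 0.0389% and 6.16% in 5A3+/del mice.

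The ratio of Naca to Btf3 followed Btf3. In CD150hi HSC the WT libraries had log2 ratios of −1.81, −2.02, −1.94, −1.89 and −1.75 and the 5A3+/del libraries had −1.37, −1.56, −1.58, −1.65 and −1.56. The groups did not overlap, and the ratio was 1.26-fold higher with the deletion. By a two-sided exact permutation test p was 0.00794, which is the smallest that 5 against 5 libraries allow (adjusted p = 0.0476). That adjustment covered the ratio tests alone and not all genes. With Naca at a log2 difference of −0.04, the ratio carries the genotype difference of Btf3 and is no independent measure of it. Btf3 by itself was not called over all genes in CD150hi HSC (limma adjusted p = 0.0839). Non-overlap in either direction was found for 2.58% of single genes in this population, and the share among ratios of gene pairs was not computed. In CD150lo HSC and CD150neg MPP the log2 differences of 0.11 and 0.03 were within the spread of the mice (exact permutation tests, p = 0.198 and 0.889). Leaving out a mouse raised the adjusted p of the CD150hi HSC ratio above 0.05, to at most 0.0952, for 7 of the 10 mice by the same exact permutation test. They were all 5 WT mice and 5A3+/del mice 3 and 4. The smallest p that 5 against 4 libraries allow in this exact permutation test is 0.0159, before adjustment over the ratio tests. Crossing the threshold therefore cannot tell dependence on single mice from the smaller number of libraries.

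Cell type markers also differed in level between the genotypes in CD150hi HSC, where none was called. By limma, 3 of 9 stem and progenitor cell markers and 4 of 7 tested granulocyte and monocyte markers had an unadjusted p under 0.05. Of all genes tested in this population, 13.1% had such a p. Of the stem and progenitor cell markers 8 of 9 had positive differences (7 without quantile normalization). Among them Ly6a, which encodes Sca-1, was at 115 ± 19.2 and 176 ± 30.6 normalized FPKM and Cd34 at 34.3 ± 12.0 and 49.6 ± 8.34 (SD of 5 mice each, adjusted p by limma 0.12 for both). In the mean effect over populations 1 of the 9, Ly6a, was called (limma adjusted p = 0.0432). The summed granulocyte and monocyte markers had a median of 297 FPKM in WT CD150hi HSC and of 16.04 FPKM with the deletion. Among them S100a9 was at 118 ± 79.5 and 17.2 ± 21.2 normalized FPKM (SD of 5 mice each, adjusted p by limma 0.187). Ly6g, a surface marker of neutrophils, was listed at 0 in all 5 5A3+/del CD150hi libraries and ranged from 0 to 9.31 FPKM in WT, with a median of 0. Their part in the Btf3 difference was not tested. In such bulk RNA, fewer cells of a type and less RNA per cell cannot be told apart.

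A comparison of levels between the genes depends on the length to which fragments are scaled. The FPKM in the table use all annotated exons of a gene, and for Naca these are 7034 bp, the length of a long isoform, Naca-202. Deposited FPKM in WT CD150hi HSC were 32.5 ± 2.40 for Naca and 126.4 ± 6.64 for Btf3 (SD, n = 5). Scaled to a single coding transcript (Naca-201, 1118 bp, and Btf3-001, 1091 bp), the levels were 204 ± 15.1 and 201.4 ± 10.6 FPKM. On that scale the subunits of the nascent polypeptide-associated complex were at like levels in WT CD150hi HSC, and Dnajc2 (37.2 ± 4.84, over 2133 bp) and Hspa14 (29.9 ± 6.65, over 1795 bp) were lower. Hspa8 was at 268 ± 92.4 (over 2394 bp). This rescaling assumes that all fragments came from the named transcript.

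Hspa8, the constitutive cytosolic Hsp70, differed mainly between mice. In CD150hi HSC the 5 WT mice had 167, 209, 197, 87.2 and 111 FPKM of Hspa8 and the 5A3+/del mice had 182, 101, 125, 109 and 141 FPKM. Each mouse kept its level in the other populations. WT mice 1 to 3 were at 167 to 237 FPKM in all their libraries, and WT mice 4 and 5 at 87.2 to 117. Of the sum of squares of Hspa8 within the 6 groups, 93.5% lay between mice, against a median of 39.1% over all genes tested and 23.7% for Dnajc2.

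The genotype difference of Hspa8 was −0.08, −0.18 and −0.26 on the log2 scale in the 3 populations (SE 0.26 to 0.28, limma adjusted p of at least 0.927). The 95% intervals ran from −0.84 to 0.46. Its sign depended on the ages that were compared. At 13.28 weeks the 1 5A3+/del mouse was at 77.4% to 102% of the mean of 3 WT mice, and at 12.42 and 12.85 weeks 5A3+/del mice were at 129% to 145% of the WT mouse. With the age label as a factor the differences became 0.27, 0.17 and 0.11, and none was called by limma. The 3 WT mice with high Hspa8 all carry the age label of 13.28 weeks, so that mouse and age cannot be told apart among WT mice.

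The genes most like Hspa8 over the 29 libraries were Banp (Pearson r = 0.91), Hsph1 (r = 0.91) and Gm8355, annotated as a pseudogene (r = 0.90). These are descriptions over libraries of which up to 3 share a mouse. Hsph1 encodes a heat-inducible nucleotide exchange factor for Hsp70 proteins. WT mice 1, 2 and 3 had mean Hsph1 levels of 24.4, 27.9 and 22.3 FPKM, and WT mice 4 and 5 had 4.57 and 6.83 FPKM. The 5A3+/del mice lay between 6.35 and 16.1 FPKM. Of its sum of squares within groups, 98.0% lay between mice.

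Hspa1a and Hspa1b, near-identical genes for the inducible Hsp70, set WT mouse 1 apart. Its 3 libraries had 9.85 to 14.6 FPKM of Hspa1b (697 to 1230 fragments), and no other mouse exceeded 4.29. Hspa1a was at 5.51 to 10.5 FPKM in that mouse and at most 1.18 elsewhere. Reads of such a gene pair can be split between the copies, so their separate levels are uncertain. Dnajb1, a heat-inducible J-domain protein, was also highest in WT mouse 1, at 91.5 to 116 FPKM against 33.4 to 88.1 in all other libraries.

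**Figure D3:**
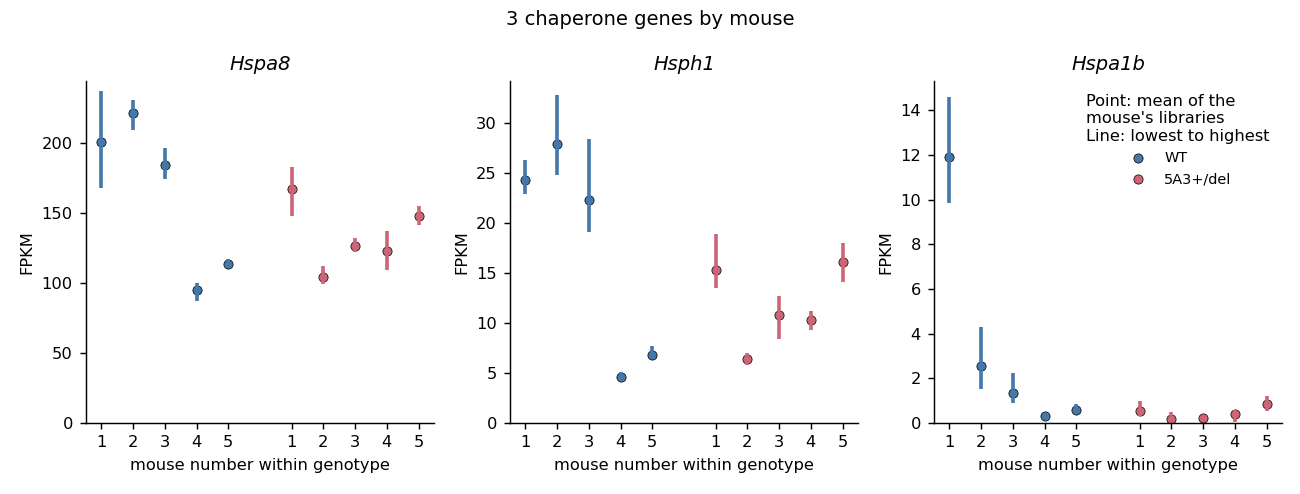
FPKM of Hspa8, Hsph1 and Hspa1b (vertical axes, from 0) by mouse, with the mean of each mouse's 2 or 3 libraries as a point and the lowest to highest library as a line. WT mice 1 to 3 are at 167 to 237 FPKM of Hspa8 and 19.1 to 32.8 FPKM of Hsph1, WT mice 4 and 5 at 87.2 to 117 and 4.24 to 7.69 FPKM, and WT mouse 1 stands apart for Hspa1b.

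Heat-inducible genes are known to carry heat shock elements, inverted GAA units to which heat shock factor binds. The 250 bases before the start were searched on both strands for an inverted pair, GAANNTTC or TTCNNGAA, in RefSeq promoter windows of GRCm38.p6. A pair was found in 12.8% of 32851 windows, and 3 units in a row (GAANNTTCNNGAA or TTCNNGAANNTTC), which contain such pairs, in 0.466%. Of 9 heat-inducible chaperone genes with 1 or 2 windows each, 6 held a pair in at least 1 window, and Hspd1 and Hspe1 held 3 units in a row. These counts are per gene, unlike the shares per window above. Of the genes described here, Btf3 had a pair, Hspa14 and Naca had none, and Dnajc2 and Hspa8 were not analysed. Stretches with the matches are shown 5′ to 3′ on the strand of the gene, with matched GAA and TTC units in capitals, for the mouse-dependent genes Hspa1b and Hsph1, for Hspe1, where overlapping matches make up 4 units in a row, and for Btf3.
Hspa1b, chr17:34959309-34959368 (−): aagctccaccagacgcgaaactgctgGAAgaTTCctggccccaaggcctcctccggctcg
Hsph1, chr5:149636337-149636395 (−): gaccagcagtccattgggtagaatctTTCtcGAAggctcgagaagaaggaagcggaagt
Hspe1, chr1:55088033-55088102 (+): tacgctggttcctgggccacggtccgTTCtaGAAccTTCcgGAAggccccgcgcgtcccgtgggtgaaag
Btf3, chr13:98317007-98317051 (−): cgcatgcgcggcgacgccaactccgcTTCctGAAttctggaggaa
The matches lie 33 to 26 bases before the start in Hsph1, 104 to 97 in Hspa1b, 89 to 72 in Hspe1 and 19 to 12 in Btf3. They describe letters in these windows and do not show that a factor was bound.

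Further genes of nascent chain handling, and of cytosolic and heat-inducible chaperones, were compared through 9 lists of 86 genes, of which 83 were tested. None passed in any population or in the mean effect by limma. In the 3 populations 13, 6 and 5 of the 83 had an unadjusted p under 0.05, against 13.1%, 6.87% and 4.27% of all genes. In the mean effect 18 of the 83 did, 15 of them lower in 5A3+/del mice, against 9.79% of all genes. The N-terminal processing enzymes, which trim and acetylate new chains, were divided in direction (8 of 13 higher in CD150hi HSC). Naa20, an acetyltransferase subunit, was at 6.86 ± 1.51 in WT CD150hi HSC and 11.0 ± 2.19 normalized FPKM with the deletion (SD of 5 mice each, adjusted p by limma 0.111). The signal recognition particle, which delivers chains to the endoplasmic reticulum, had 5 of 10 genes higher there, with log2 differences from −0.24 to 0.20. Of 9 ribosome-associated quality control genes, 4, 4 and 8 had negative differences in the 3 populations. Of 20 tested genes of the cytosolic Hsp70 and Hsp90 system, 9, 11 and 13 did.

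Of 7 genes that target tail-anchored membrane proteins, 3 had positive and 4 negative differences in CD150hi HSC. Asna1, the ATPase among them, was at 21.9 ± 8.70 in WT CD150hi HSC and 10.7 ± 3.56 normalized FPKM with the deletion (SD of 5 mice each, adjusted p by limma 0.119). All 6 prefoldin genes, whose products pass chains to the chaperonin, had negative differences in CD150hi HSC and in CD150lo HSC, with medians of −0.30 and −0.24, where the median over all genes was 0.00 and 0.01. In CD150neg MPP 4 were negative and 2 positive, with a median of −0.16. The prefoldin gene with the largest difference, H2-Ke2, was at 11.6 ± 2.13 and 6.11 ± 3.26 normalized FPKM in CD150hi HSC (SD of 5 mice each, adjusted p by limma 0.147). Of the 8 TRiC/CCT chaperonin genes, 4, 5 and 8 had negative differences in CD150hi HSC, CD150lo HSC and CD150neg MPP, with medians of −0.06, −0.03 and −0.15. In CD150neg MPP the count was 7 without quantile normalization and 7 with median scaling.

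Of 9 tested heat-inducible chaperones, 8, 8 and 9 had negative differences in CD150hi HSC, CD150lo HSC and CD150neg MPP, with medians of −0.31, −0.30 and −0.45. In CD150neg MPP the count was 8 without quantile normalization and 7 with median scaling. None was called, and 2 genes in each population had an unadjusted p under 0.05 by limma, against 13.1%, 6.87% and 4.27% of all genes. In the mean effect all 9 had negative differences and 0 were called. There 5 had an unadjusted p under 0.05 by limma, against 9.79% of all genes. Hspe1, the mitochondrial co-chaperonin, was at 99.1 ± 15.4 in WT CD150lo HSC and 67.2 ± 9.10 normalized FPKM with the deletion (SD of 5 mice each, adjusted p by limma 0.252). Beside these counts stand the high Hspa1a, Hspa1b and Dnajb1 values of WT mouse 1 and the high Hsph1 values of WT mice 1 to 3. Mice of the same age gave Hsph1 levels in 5A3+/del mice of 216% to 257% of WT at 12.42 and 12.85 weeks and of 52.8% to 63.6% at 13.28 weeks. The part of these mice in the counts was not tested. Btf3l4, a Btf3 paralog and the only 1 of 2 listed paralogs tested, had positive differences of 0.22, 0.13 and 0.37 (limma adjusted p of at least 0.584).

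Ribosomal protein genes, which encode the structure that these factors bind, mostly had negative differences in the HSC populations. In CD150hi HSC 71 of 80 tested genes had negative differences with a median of −0.18, and without quantile normalization and with median scaling the counts were 80 and 79 and the medians −0.29 and −0.27. In CD150lo HSC 67 of 80 were negative with a median of −0.14, and under the same scalings 78 and 78, with medians of −0.28 and −0.30. In CD150neg MPP the direction turned with the scaling, from 53 of 80 negative with a median of −0.03 to 38 and 27 negative, with medians of 0.01 and 0.03.

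**Figure D4:**
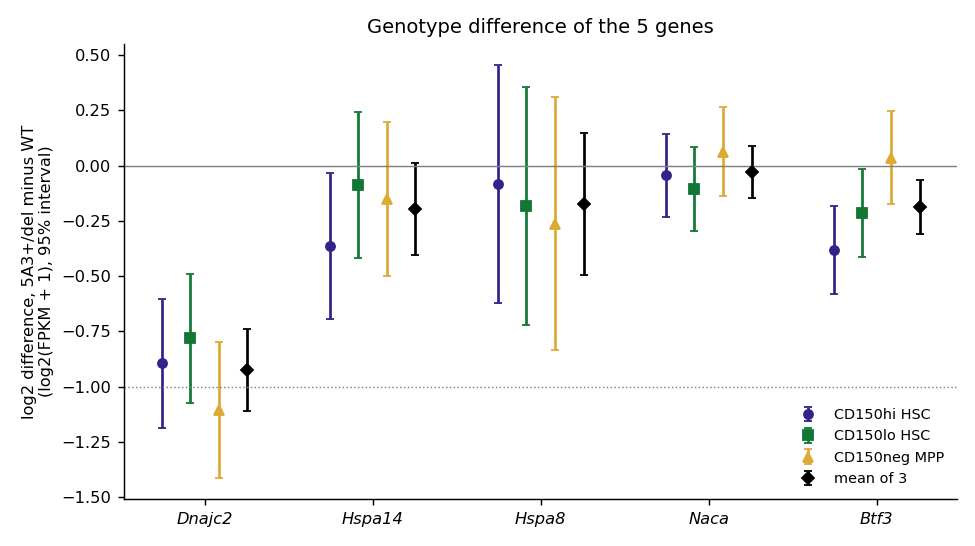
Log2 difference of 5A3+/del minus WT on the log2(FPKM + 1) scale (vertical axis) with 95% intervals for the 5 genes in each population and for the mean of the 3, with a dotted line at −1. Dnajc2 lies between −1.11 and −0.78 and is the only gene of the 5 called over all genes tested. Intervals of Hspa8 span from −0.84 to 0.46.

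Over both genotypes, libraries in which Dnajc2 was high also had high levels of other 5A3 genes, which are deleted with it in 5A3+/del mice. The genes most like it over 29 libraries were Orc5 (Pearson r = 0.87), Armc10 (r = 0.86) and Pmpcb (r = 0.85), all within the interval. These values carry the genotype difference that the interval genes share. Within the 15 WT libraries the correlations of these genes with Dnajc2 were 0.03, 0.34 and 0.28, and within the 5A3+/del libraries 0.35, 0.50 and −0.025. In the WT libraries the most similar genes were Rbbp6 (r = 0.88), Gcfc1 (r = 0.83) and Vps26b (r = 0.81). With Hspa14, Dnajc2 had r = 0.38 over all libraries, −0.07 in WT libraries and 0.09 in 5A3+/del libraries. Hspa14 was most like Tmem14c (r = 0.78), Tomm70a (r = 0.76) and Morf4l2 (r = 0.74). Naca was most like the pseudogene Gm6311 (r = 0.71), Gm8841 (r = 0.70) and Tomm20 (r = 0.70), and Btf3 was most like Cox5b (r = 0.84), Gm11273 (r = 0.82) and the pseudogene Gm11249 (r = 0.81). Up to 3 of the libraries behind each value come from the same mouse.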

How the data were processed

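Reads were mapped to mm9 by the authors, and the submitters' processing notes name Bowtie 0.12.2 and HTSeq. The authors deposited FPKM per gene, not quantile normalized, for 30025 genes. Amplified cDNA was sequenced, and PCR copies cannot be told apart, so fragments cover counting error only. FPKM times merged exon length (GENCODE, mm9) gave whole fragments, within 0.02, for 98.2% to 98.7% of low values.

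Genes that reached 1 FPKM in 4 or more libraries were retained, transformed as log2(FPKM + 1), quantile normalized and fitted in limma 3.58.1 (R 4.3.3) with 6 group means over all 29 libraries. This scale understates the change of low genes. Tests were two-sided, with Benjamini-Hochberg adjustment over all 15409 genes and a threshold of 0.05. The measure of the study, coverage of the highest covered coding exon, was not used here. Normalized FPKM are back-transformed values. Ratios within libraries were compared by exact permutation tests in scipy 1.17.1. Steps were tested on simulated data.

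Groups follow the genotype and cell type labels, which name the CD150neg cells HSC (MPP in the study). The description code links libraries of different populations to a mouse. Residuals of such pairs correlated with a median of 0.0786 (−0.0418 to 0.235, 28 pairs), against −0.01 for pairs from different mice. The mean genotype effect used this block with an estimated correlation of 0.0792. WT and 5A3+/del mice with the same number are different mice. The fit counts libraries, of which up to 3 share a mouse, so its p-values do not rest on a count of mice.

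Text names the 5 genes, list genes with adjusted p under 0.05 (at most 5) or otherwise among the 2 with the largest moderated statistic, and the 3 genes most correlated with each. WT mouse 1 as the source of high Hspa1a, Hspa1b and Dnajb1 values, and the promoter stretches, were chosen after values were seen. The 5 genes and all lists were chosen with earlier results of these data known. Alternatives covered the pseudocount, filter, scaling, variance trend, samples, age, mouse block and leaving out each mouse. A called gene is not reported here.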

Additional observations from a re-analysis of the deposited data

Results flagged for a closer look

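In 42 groups of 4 or 5 libraries (5 genes and 2 ratios in 6 groups), 2 held a library far from the others by Dixon's criterion, and chance gives about 1 in 20 groups. Hspa14 was at 7.84 normalized FPKM in the CD150lo HSC of 5A3+/del mouse 5, above the 5.28 to 5.86 of the other 4 mice. The log2 ratio of Dnajc2 to Hspa14 was 1.12 in the CD150neg MPP of WT mouse 1, below the 1.38 to 1.47 of the other 4 mice. No genotype effect of the 5 genes differed between populations after adjustment over all genes in limma.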

How the results depend on the processing

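All values are from limma unless a ratio is named. Of the alternative values, 1422 kept direction and side of the threshold (for counts, stayed within 1.5 times), 37 reversed, 35 lost and 12 gained a call, and 68 counts moved further. Direction of the Dnajc2 genotype difference and its call held under each alternative except when only the groups compared entered the fit (differences of −0.89, −0.78 and −1.11 in CD150hi HSC, CD150lo HSC and CD150neg MPP, not called) and when single mice were left out in CD150lo HSC (−0.87 to −0.71). With the mouse as a block the adjusted p of Dnajc2 was 0.00683, 0.0324 and 0.000831, and 56 genes were called in CD150hi HSC (24 without the block) and 8 in CD150lo HSC (5 without it). Without the replicate block the mean effect called 72 genes, against 38. Among the 5 genes, the block moved the call of Btf3 between WT CD150hi HSC and CD150neg MPP, given above, and no other genotype call.

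The number of genes called between genotypes in CD150hi HSC was 85 with a filter at 10 FPKM in any library, 75 without a filter, 15 with a pseudocount of 0.1, 100 with a variance trend, 0 with only the groups compared, and 4 to 40 when a mouse was left out. In CD150lo HSC these counts were 17, 16, 8, 31, 0 and 3 to 74, with 74 without WT mouse 5. In CD150neg MPP, against 7, the count was 4 without a filter, 4 with the age label as a factor, 0 with only the groups compared, and 3 to 8 when a mouse was left out. The mean effect called 62, 81 and 73 genes with the filter at 10 FPKM, no filter and the trend, 21 without quantile normalization, and 10 to 59 when a mouse was left out. The main fit tested 80 ribosomal protein genes. Those called in CD150hi HSC numbered 5, 7 and 7 with the filter at 10 FPKM, no filter and the trend, and 2 with the block. They numbered 0 with median scaling or only the groups compared, and 0 to 1 when a mouse was left out. Of all genes, 0.979%, 0.25%, 0.649% and 0.363% were called with that filter, no filter, the trend and the block. In CD150lo HSC the ribosomal protein genes called numbered 3 without a filter and with the trend. There 0.0533% and 0.201% of all genes were called. When a mouse was left out, the ribosomal protein genes called in CD150lo HSC numbered 0 to 3. Of the 6 other interval genes tested, 0 were called in each population with only the groups compared, and 1 to 4, 1 to 4 and 2 to 3 when a mouse was left out.

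Signs turned only for differences that were not called. With the age label as a factor, chosen after seeing the data, Hspa8 was at 0.27, 0.17 and 0.11 in the 3 populations and 0.19 in the mean, and Btf3 at −0.038 in CD150neg MPP. Between CD150lo HSC and CD150neg MPP, Hspa8 was at 0.016 in WT mice with median scaling, and Naca at −0.049 without quantile normalization and −0.017 with median scaling in 5A3+/del mice. Naca between CD150hi HSC and CD150neg MPP was at −0.029 in 5A3+/del mice without quantile normalization. The difference of genotype effects between CD150lo HSC and CD150neg MPP was −0.0023 for Hspa14 with the mouse as a fixed block, and −0.041 and −0.077 for Hspa8 without quantile normalization and with median scaling. When a mouse was left out, genotype differences ranged from −0.24 to 0.034 for Hspa8 in CD150hi HSC and from −0.015 to 0.11 for Btf3 in CD150neg MPP. Between CD150hi and CD150lo HSC of WT mice the ranges were −0.11 to 0.064 for Dnajc2, −0.070 to 0.083 for Hspa14, −0.14 to 0.00033 for Naca and −0.082 to 0.0027 for Btf3. In 5A3+/del mice they were −0.25 to 0.039 for Dnajc2 and −0.042 to 0.031 for Hspa8. There, between CD150lo HSC and CD150neg MPP, they were −0.11 to 0.0093 for Hspa8 and −0.0058 to 0.031 for Naca, and between CD150hi HSC and CD150neg MPP −0.079 to 0.23 for Dnajc2, −0.21 to 0.069 for Hspa14 and −0.076 to 0.030 for Hspa8. Differences of genotype effects ranged from −0.22 to 0.062 for Dnajc2 (CD150hi less CD150lo), and from −0.023 to 0.11 for Hspa14 and −0.0051 to 0.13 for Hspa8 (CD150lo less CD150neg). The genotype difference of the log2 ratio of Dnajc2 to Hspa14 ranged over −0.75 to −0.42, −0.80 to −0.60 and −1.06 to −0.81 in the 3 populations, and that of Naca to Btf3 over 0.29 to 0.37 in CD150hi HSC and −0.061 to 0.071 in CD150neg MPP. The cause was not tested.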
